A study of Mus musculus with 3 samples.

Results

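The 8 heat shock protein genes described here were Hsp90aa1, Hsp90ab1, Hspa8, Hspa1a, Hspa5, Hspd1, Hspe1 and Dnaja1, given by name among the 31053 genes of the count matrix; the rule uses no measured value, although the list was drawn up with earlier results of these data known. Their messenger RNA was counted in LSK cells, the bone marrow fraction sorted as negative for lineage antigens and positive for Sca1 and Kit, which holds blood stem cells and multipotent progenitors. The cells came from 2 Helios-deficient mice and from 2 mice of wild type. Helios is an Ikaros family transcription factor encoded by Ikzf2. The labels give neither how the allele was made nor the age or sex of the mice. Antibody tags for CD48, CD150, CD41 and Flt3 were read from all cells. The cells of each mouse carried their own hashtag antibody, and 2500 cells per mouse were pooled in 1 droplet run, so that no difference between runs could enter a comparison. The 3470 barcodes on the authors' list of kept cells were used: 557 and 824 cells of Helios-deficient mice 1 and 2, and 1175 and 914 cells of wild-type mice 1 and 2.

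Heat shock proteins are molecular chaperones, which bind unfolded or partly folded proteins and help them reach or keep their shape. Hsp70 proteins (Hspa8 in the cytosol of all cells, its stress-inducible relative Hspa1a, and Hspa5, also called BiP, in the endoplasmic reticulum) hold exposed stretches of a client protein, and J-domain proteins such as Dnaja1 bring them clients and start their ATP cycle. Hsp90 proteins (the inducible Hsp90aa1 and the constitutive Hsp90ab1) take over kinases, steroid receptors and other clients at a late step of folding. Hspd1 and Hspe1, the chaperonin Hsp60 and its lid Hsp10, fold proteins inside mitochondria. In mammals, heat and other protein damage switch on many of these genes through heat shock factor 1, whereas unfolded protein in the endoplasmic reticulum switches on Hspa5. Dntt, used here to set cells apart, encodes the terminal transferase of developing lymphocytes and marks lymphoid priming among LSK cells.

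The promoters differed in the letters of these 2 classical response elements. The RefSeq windows of 250 bases before to 50 bases after each start (build GRCm38.p6, the mm10 assembly) covered 5 of the 8 genes, and 4 windows are shown, each the window of a different gene with a heat shock or endoplasmic reticulum stress element, in capitals. The windows of Hspd1 are described but not shown, since the one with a heat shock element covers nearly the same stretch as that of Hspe1, on the other strand. The heat shock element was searched as alternating units GAANNTTC or TTCNNGAA, and the endoplasmic reticulum stress response element as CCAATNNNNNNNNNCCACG, each on both strands, as was the E-box CACGTG, the letters bound by MYC.
Hspe1 (chr1:55087898-55088197, + strand): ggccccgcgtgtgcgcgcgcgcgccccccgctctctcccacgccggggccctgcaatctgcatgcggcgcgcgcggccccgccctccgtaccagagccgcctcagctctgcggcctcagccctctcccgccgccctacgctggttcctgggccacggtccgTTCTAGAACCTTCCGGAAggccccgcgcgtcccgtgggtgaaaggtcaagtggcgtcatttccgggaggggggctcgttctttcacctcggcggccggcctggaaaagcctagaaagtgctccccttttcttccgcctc
Hspa5 (chr2:34771840-34772139, + strand): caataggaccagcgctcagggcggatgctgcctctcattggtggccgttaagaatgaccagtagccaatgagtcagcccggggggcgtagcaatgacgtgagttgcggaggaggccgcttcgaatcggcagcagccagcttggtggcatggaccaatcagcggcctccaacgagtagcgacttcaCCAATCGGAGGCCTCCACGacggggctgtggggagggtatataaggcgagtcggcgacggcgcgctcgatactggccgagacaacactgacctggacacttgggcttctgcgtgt
Hspa1a (chr17:34972107-34972406, − strand): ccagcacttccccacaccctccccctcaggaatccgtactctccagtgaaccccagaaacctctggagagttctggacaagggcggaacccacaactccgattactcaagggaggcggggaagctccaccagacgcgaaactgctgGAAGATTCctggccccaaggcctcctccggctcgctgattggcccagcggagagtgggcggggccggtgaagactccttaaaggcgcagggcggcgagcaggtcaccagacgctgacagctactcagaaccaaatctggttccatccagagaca
Dnaja1 (chr4:40722218-40722517, + strand): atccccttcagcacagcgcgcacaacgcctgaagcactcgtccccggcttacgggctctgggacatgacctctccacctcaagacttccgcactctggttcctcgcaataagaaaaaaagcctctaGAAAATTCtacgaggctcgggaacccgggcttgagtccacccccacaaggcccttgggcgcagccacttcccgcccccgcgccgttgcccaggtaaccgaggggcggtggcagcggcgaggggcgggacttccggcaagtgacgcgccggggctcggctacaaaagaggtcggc

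The capitals in the Hspe1 window mark a heat shock element of 4 units in a row, which begins 89 bases before the start and was found in 8 of 32851 mouse windows (0.0244%). Hspd1 and Hspe1 lie head to head on chromosome 1 with annotated gene bodies that overlap by 96 bases (55077833 to 55088243 for Hspd1 and 55088148 to 55091317 for Hspe1), and the same element lies in 1 of the 2 Hspd1 windows, read on the other strand. Both genes lie 14.44 Mb from Ikzf2 on that chromosome. The capitals in the Hspa5 window mark 1 endoplasmic reticulum stress response element, 65 bases before the start, a run of letters found in 39 windows (0.119%). A Hspd1 window held 1 E-box, 80 bases before its start, as 7.15% of all windows do. Hspa1a and the first of 3 Dnaja1 windows each held the 2-unit element, 104 and 124 bases before the start, which 15.1% of all windows hold. A match of letters is a description of the window and shows no binding. Only exact letters were searched, so elements or units with an altered letter were not counted or marked.

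The kept cells held 5729987 and 8424677 UMIs in Helios-deficient mice 1 and 2, and 10317599 and 8364109 UMIs in wild-type mice 1 and 2, where a UMI (unique molecular identifier) stands for 1 captured RNA molecule. Kit was detected in 53.0% of the kept cells and Ly6a, which encodes Sca1, in 58.9%. Markers of mature blood cells were present at low summed levels of 3.09 to 280 CPM (UMIs scaled to a total of 1000000) in each mouse, apart from the B cell list (8 of 8 markers with UMIs), which held 177 and 1139 CPM in Helios-deficient mice 1 and 2 and 5904 and 223 CPM in wild-type mice 1 and 2. Of the 6 markers of T or NK cells, Cd3e was at 0. Helios-deficient mice 1 and 2 held 73.6 and 82.7 CPM of Ikzf2 RNA, against 70.6 and 67.7 CPM in wild-type mice 1 and 2, a log2 difference of 0.18 (SE 0.08, adjusted p = 0.46). Counting at the 3′ end does not check a change made elsewhere in the gene, so these values do not test the labels. The cells of 1 mouse are not replicates. Every test was made on UMI sums per mouse with edgeR's quasi-likelihood F-test, with Benjamini-Hochberg adjustment over all genes tested and a threshold of 0.05.

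Of the 8 genes 7 were abundantly detected, and together all 8 held 0.864% and 0.734% of the UMIs of Helios-deficient mice 1 and 2, against 0.696% and 0.777% in wild-type mice 1 and 2. Hspa1a was the exception. It gave 35 UMIs in 27 of 3470 kept cells (0.778%, exact 95% binomial interval 0.513 to 1.13), with 4 and 15 UMIs in Helios-deficient mice 1 and 2 and 12 and 4 UMIs in wild-type mice 1 and 2. No kept cell held more than 3 Hspa1a UMIs. Its near-identical neighbour Hspa1b gave 17 UMIs, of which 2 and 11 came from Helios-deficient mice 1 and 2 and 4 and 0 from wild-type mice 1 and 2. How reads that match both genes were counted was not examined, so both counts may be too low. The counts ranked the mice differently from the other members, whose highest mouse was Helios-deficient mouse 1, and were too few for a test. The share of cells with an Hspa1a UMI sets no share of expressing cells, since free RNA in the droplets can give single UMIs and no cell type known to lack the gene was at hand to set that background.

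Cell cycle state gave the largest differences of the comparisons made. Cells were ranked by the share of their UMIs in 42 S phase and 52 G2 and M phase genes, none of them a heat shock gene, and the 1157 cells with the highest share (high-cycle cells, above 0.691%) were set against the 1157 with the lowest (low-cycle cells, at or below 0.289%). All 7 tested heat shock genes rose in high-cycle cells, in 4 of 4 mice each. In all 7 the values of the high-cycle cells lay above every value of the low-cycle cells. How many of all genes did so was not counted. Across all 10071 genes tested, 26.6% were higher and 26.1% lower in high-cycle cells. The median log2 difference of the 7 genes was 0.77, against −0.03 over all genes tested.

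The Hsp90 genes stood at opposite ends of this response. Hsp90aa1 had 1597, 1359, 1277 and 1397 CPM in the high-cycle cells of Helios-deficient mice 1 and 2 and wild-type mice 1 and 2, against 713, 653, 597 and 669 CPM in their low-cycle cells. The unscaled log2 ratios of the 4 mice lay between 1.06 and 1.16. After scaling between the sums, the fitted difference was 1.18 on the log2 scale (SE 0.03, adjusted p = 5.5e-33), the largest of the 7. Hsp90ab1, the constitutive isoform, averaged 2220 ± 134 CPM in high-cycle and 1797 ± 80.6 CPM in low-cycle cells (SD, n = 4 mice), and its difference of 0.39 on that scale was the smallest (SE 0.03, adjusted p = 7.39e-18).

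Among the Hsp70 genes, Hspa8 had 3646, 2838, 2817 and 3390 CPM in the high-cycle cells of the mice in the same order, against 2139, 2042, 1871 and 2216 CPM in their low-cycle cells. The mice spread more in high-cycle than in low-cycle cells, with Helios-deficient mouse 1 and wild-type mouse 2 high, and the difference was 0.70 on the log2 scale (SE 0.06, adjusted p = 1.3e-04). Hspa5, the chaperone of the endoplasmic reticulum, averaged 471 ± 58.2 against 254 ± 36.7 CPM (log2 0.96, SE 0.09, adjusted p = 6.89e-05). The cytosolic J-domain gene Dnaja1 averaged 446 ± 59.8 against 336 ± 37.8 CPM (log2 0.49, SE 0.05, adjusted p = 8.25e-13).

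The mitochondrial pair rose together. Hspd1 averaged 538 ± 50.7 CPM in high-cycle and 292 ± 28.1 CPM in low-cycle cells (log2 0.97, SE 0.04, adjusted p = 3.99e-24). Hspe1, its lid, held 588 to 747 CPM in the high-cycle cells of the 4 mice and 397 to 408 CPM in their low-cycle cells (log2 0.77, SE 0.05, adjusted p = 5.46e-16). High-cycle cells were also deeper, at a median of 12749 UMIs against 6164 UMIs in low-cycle cells. The B cell marker list held 164 to 206 CPM in the high-cycle cells of each mouse, whereas in low-cycle cells it held 202 and 4920 CPM in Helios-deficient mice 1 and 2 and 21302 and 315 CPM in wild-type mice 1 and 2. In the mice where that list was low in both classes, Helios-deficient mouse 1 and wild-type mouse 2, the unscaled log2 ratio of Hsp90aa1 was 1.16 and 1.06, against 1.06 and 1.10 in Helios-deficient mouse 2 and wild-type mouse 1. The part of depth in the result was not tested.

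**Figure D1:**
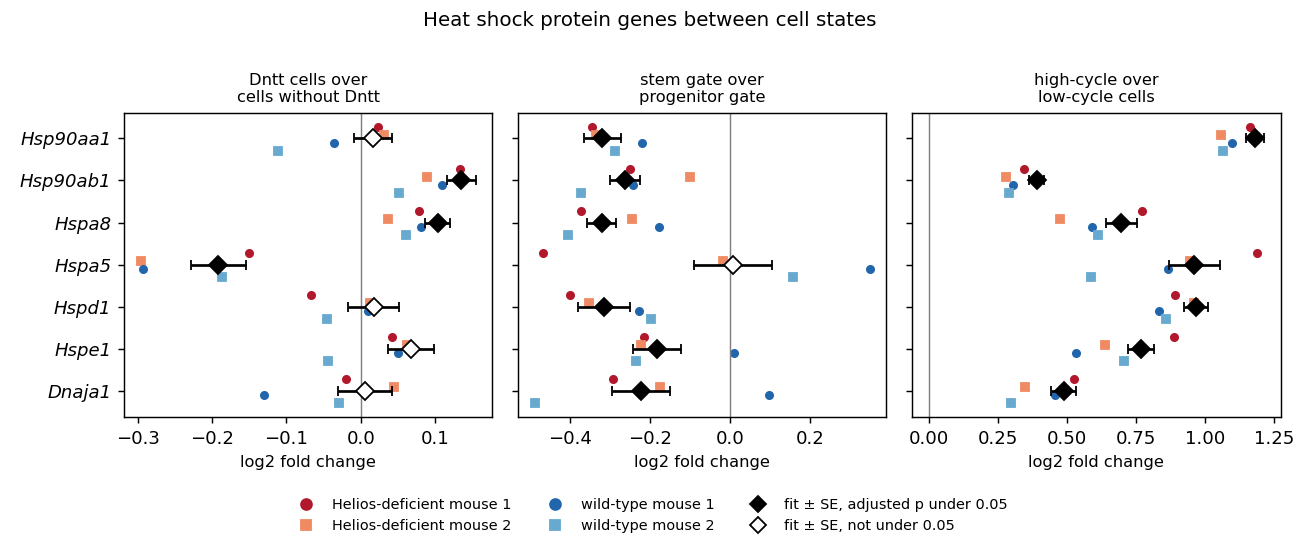
Log2 fold changes of the 7 tested heat shock genes (rows) in cells with Dntt UMIs over cells without, in the stem gate over the progenitor gate, and in high-cycle over low-cycle cells. Diamonds give the edgeR estimate with its SE, and small symbols the unscaled ratio in each mouse; all 7 genes lie right of 0 in the cell cycle panel, 6 of 7 left of 0 with an adjusted p under the threshold in the gate panel.

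The rise was not even over bins of the cell cycle share. The kept cells were ranked by that share and split into 5 bins with equal numbers of cells. Medians per mouse were at most 0.195% of UMIs in cycle genes in bin 1 and 0.381 to 0.408% in bin 3. They were 0.739 to 0.777% in bin 4 and 1.40 to 1.46% in bin 5, so the bins were not evenly spaced in share. Hsp90aa1 averaged 643 ± 76.1, 713 ± 44.6, 886 ± 104, 1252 ± 79.2 and 1456 ± 165 CPM from bin 1 to bin 5 (SD, n = 4 mice). Hspd1 averaged 277 ± 27.1, 315 ± 40.5, 378 ± 34.7, 531 ± 48.2 and 529 ± 56.2 CPM over the same bins. Hsp90aa1 was thus higher in bin 5 than in bin 4 in 4 of 4 mice, whereas the means of Hspd1 in those bins differed by less than the spread between mice, as did those of Hspe1 (656 ± 66.2 CPM in bin 4 and 642 ± 65.0 CPM in bin 5). Hspa5 stayed between 212 and 319 CPM in bins 1 to 3 and lay between 352 and 543 CPM in bins 4 and 5.

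**Figure D2:**
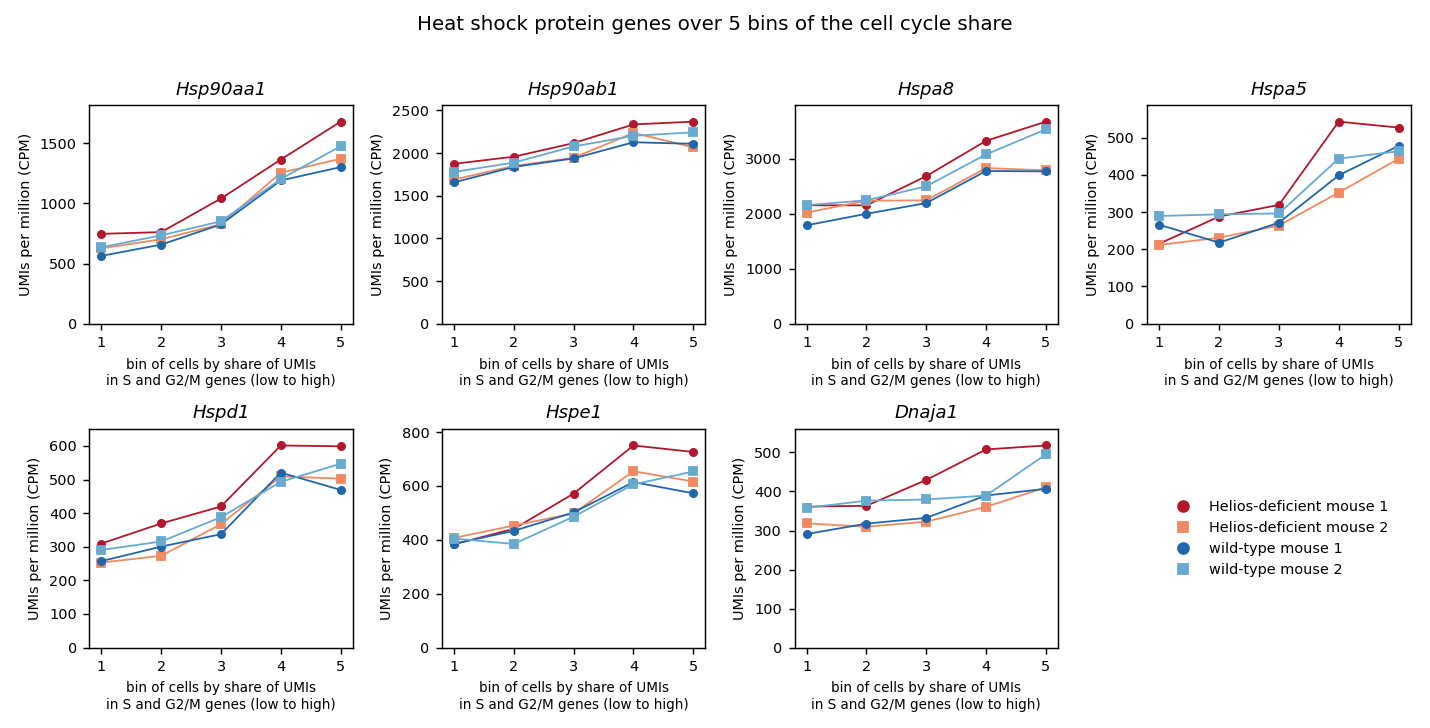
Level of 7 heat shock genes (CPM, y axis from 0) over 5 equal bins of the kept cells ranked by the share of UMIs in S and G2/M genes (x axis, low to high), 1 line per mouse. The step of the mean from bin 3 to bin 4 is the largest for all 7 genes, though for Dnaja1 hardly larger than the next (366, 412 and 458 CPM in bins 3 to 5). The bins are not evenly spaced in that share.

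Other chaperone genes were examined as lists, whose counts are to be read beside those 26.6% higher and 26.1% lower genes. All 7 tested genes of TRiC, the cytosolic chaperonin of actin and tubulin, rose in high-cycle cells (median log2 0.40), among them Tcp1 (378 ± 32.2 against 230 ± 3.70 CPM) and Cct8 (418 ± 35.1 against 291 ± 26.5 CPM). DESeq2 called 6 of these 7, not Cct4 (log2 0.12, DESeq2 adjusted p = 0.0999), whose classes overlapped between mice. Of 12 Hsp90 partners, 7 rose and none fell (median 0.35), and DESeq2 called the same 7. They included Stip1, which links Hsp70 to Hsp90 (log2 0.97, SE 0.07, adjusted p = 3.84e-17), the p23 gene Ptges3 (0.86, SE 0.05), the immunophilin gene Fkbp4 (0.65, SE 0.05) and the Hsp90 ATPase activator Ahsa1 (0.61, SE 0.06).

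Of 21 tested genes of the endoplasmic reticulum list, 14 rose and 4 fell (median 0.43), of which DESeq2 called 11 and 1. Sdf2l1, an Hspa5 cofactor, had the greatest change among the named ones, at 200 ± 34.4 CPM in high-cycle and 36.9 ± 5.48 CPM in low-cycle cells (log2 2.47, SE 0.08, adjusted p = 8.87e-31), followed by Creld2 (1.13, SE 0.10), Manf (1.03, SE 0.05) and the disulfide isomerase gene Pdia6 (0.67, SE 0.05). Of 21 cytosolic Hsp70 and Hsp40 genes, 11 rose and 4 fell (median 0.13), of which DESeq2 called 9 and 2; the share that fell was below the share over all genes. Hsph1, a nucleotide exchange factor of Hsp70, rose to 46.3 ± 10.0 CPM against 17.7 ± 4.40 CPM in low-cycle cells, and Hspa14, the ubiquitin ligase gene Stub1 and Bag1 rose by 1.16, 0.81 and 0.49 on the log2 scale. Of 12 mitochondrial chaperone and protease genes, 7 rose (median 0.34; 5 called by DESeq2), including the mitochondrial Hsp70 gene Hspa9 (0.50, SE 0.05) and its exchange factor Grpel1 (0.56, SE 0.07).

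The 2 calls in the heat shock factor list went in opposite directions and depended on the tool. Hsf1, the main heat shock transcription factor, was at 35.0 ± 3.17 CPM in high-cycle and 30.3 ± 3.26 CPM in low-cycle cells (log2 0.28, SE 0.12, adjusted p = 0.0393), and its binding partner Hsbp1 was at 214 ± 4.67 against 250 ± 8.72 CPM (log2 −0.14, SE 0.05, adjusted p = 0.0138). DESeq2 called neither (adjusted p = 0.286 for Hsf1 and 0.195 for Hsbp1). Only 1 gene of the small heat shock protein list, Hspb11, was abundant enough to test, and it did not pass. Immediate early genes, which respond within minutes to stress and to cell dissociation, went the other way: 14 of 14 tested fell (median −0.98; 12 called by DESeq2), against 26.1% of all genes tested, such as Jund (76.3 ± 8.25 against 155 ± 15.9 CPM) and Ier3 (21.0 ± 2.29 against 49.9 ± 8.92 CPM). Of 20 MYC target and nucleolar genes, 19 rose (median 0.56; 16 called by DESeq2), among them Nme1 (1.03, SE 0.05) and Pa2g4 (1.01, SE 0.05).

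Surface tags gave a second view of cell state. Cells with few CD48 tags (80 UMIs or fewer) and many CD150 tags (above 88 UMIs) formed a stem gate of 383 cells, since CD150 without CD48 marks blood stem cells. Cells with CD48 above 151 UMIs and CD150 of 69 UMIs or fewer formed a progenitor gate of 324 cells. In the stem gate, 6 of the 7 tested heat shock genes fell and Hspa5 did not pass, against 11.5% of the 7636 genes tested that were lower in the stem gate. The median log2 difference of the 7 genes was −0.26, against 0.01 over all genes tested.

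Hspa8 had 2706, 2315, 2244 and 2426 CPM in the stem gate cells of Helios-deficient mice 1 and 2 and wild-type mice 1 and 2, against 3502, 2742, 2538 and 3213 CPM in their progenitor gate cells. It was lower in 4 of 4 mice although the gates overlapped between mice, and the log2 difference was −0.32 (SE 0.04, adjusted p = 8.59e-11). Hsp90aa1 was at 1011 ± 121 against 1246 ± 184 CPM (log2 −0.32, SE 0.05, adjusted p = 6.78e-08; SD, n = 4 mice), and Hsp90ab1 at 1897 ± 165 against 2242 ± 196 CPM (log2 −0.26, SE 0.04, adjusted p = 9.77e-08). Hspd1, at 409 ± 25.1 against 503 ± 60.5 CPM, was the member whose gates did not overlap between mice (log2 −0.31, SE 0.06, adjusted p = 1.15e-04). Hspe1 (log2 −0.18, SE 0.06, adjusted p = 0.0189) and Dnaja1 (log2 −0.22, SE 0.07, adjusted p = 0.0182) were lower in 3 of 4 mice, with wild-type mouse 1 the exception for both.

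Hspa5 was at 390, 347, 436 and 407 CPM in the stem gate cells of the mice in the same order, against 540, 351, 342 and 365 CPM in the progenitor gate cells. By the unscaled log2 ratio it was lower in Helios-deficient mouse 1 (−0.47), nearly level in Helios-deficient mouse 2 (−0.017) and higher in both wild-type mice. The fitted log2 difference of 0.01 (SE 0.10, adjusted p = 0.971) thus averaged opposite values. The 540 CPM of Helios-deficient mouse 1 rest on 41 progenitor gate cells. The difference between genotypes in this contrast was not tested.

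The gates also differed in other ways. Markers of blood stem cells summed to 2596 to 3146 CPM in the stem gate cells of the 4 mice and 1082 to 1380 CPM in their progenitor gate cells, and 2.87% and 52.8% of the cells had Dntt UMIs. Of the stem gate cells, 23.0% were high-cycle cells, against 55.6% of the progenitor gate cells, with median depths of 6989 and 11431 UMIs. Among cells outside the high-cycle class (295 stem gate and 144 progenitor gate cells), 3 of the 7 genes passed, against 13.8% of all genes tested in that fit: Hsp90ab1 (log2 −0.27, adjusted p = 2.08e-04), Hspa8 (−0.33, adjusted p = 1.08e-06) and Hsp90aa1 (−0.25, adjusted p = 0.0176). There Hspd1 was at −0.22 (adjusted p = 0.167), Hspe1 at −0.09 (adjusted p = 0.658), Dnaja1 at −0.20 (adjusted p = 0.254) and Hspa5 at 0.25 (adjusted p = 0.187). DESeq2 did not call Hspe1 or Dnaja1 between the gates (adjusted p = 0.22 and 0.252). Leaving out Helios-deficient mouse 1, Helios-deficient mouse 2 or wild-type mouse 2 ended the call of Hspe1 (adjusted p = 0.0866, 0.116 and 0.0906). Dnaja1 did not pass when either Helios-deficient mouse 1 or wild-type mouse 2 was left out (adjusted p = 0.102 and 0.248). Without the mouse as a block, Hspa8, Hspe1 and Dnaja1 did not pass (adjusted p = 0.0688, 0.0841 and 0.283), where 20.3% of all genes were called.

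Other chaperone genes gave few calls between the gates, where 11.2% of all genes tested were higher and 11.5% lower in the stem gate. Among the Hsp90 partners Stip1 fell (log2 −0.39, SE 0.11, adjusted p = 0.0075) and Tomm34 rose (0.52, SE 0.14, adjusted p = 0.00386), with 10 of 12 not passing. Of 17 tested cytosolic Hsp70 and Hsp40 genes, 3 rose and none fell: the J-domain genes Dnajb2 (25.4 ± 5.20 against 9.49 ± 2.42 CPM) and Dnajb4 (34.6 ± 4.28 against 22.4 ± 1.36 CPM), and Hspa4l (40.9 ± 5.67 against 25.5 ± 7.55 CPM). The endoplasmic reticulum list was split, with 4 of 18 lower and 3 higher. Calr, a lectin chaperone, fell (530 ± 54.4 against 679 ± 25.9 CPM), as did Sdf2l1 (115 ± 21.8 against 152 ± 34.4 CPM), while Dnajb9, a J-domain partner of Hspa5 (58.0 ± 10.4 against 31.8 ± 6.49 CPM), and the stress transcription factor gene Ddit3 (24.6 ± 7.26 against 11.7 ± 2.19 CPM) rose. Of 7 TRiC genes, Tcp1 (−0.32) and Cct8 (−0.23) fell. Hsbp1 rose in the stem gate (0.29, SE 0.08, adjusted p = 0.00493). None of 12 mitochondrial genes passed, and none lay under an unadjusted 0.05, where 2510 of all 7636 genes did. Of 11 immediate early genes 4 rose, among them Jund (139 ± 20.5 against 91.4 ± 7.72 CPM), and Btg2 fell (8.78 ± 8.34 against 25.7 ± 11.2 CPM). Of 20 MYC target and nucleolar genes, 7 fell and none rose, among them Ncl (log2 −0.36, SE 0.05) and Npm1 (−0.22, SE 0.04). The 3 of 17 and 3 of 18 genes that were higher in the cytosolic and endoplasmic reticulum lists stood near the share over all genes. Many of these calls were made by edgeR alone: of the genes named here, DESeq2 also called Dnajb2, Calr, Tcp1, Jund, Btg2, Ncl and Npm1, but not Stip1, Tomm34, Dnajb4, Hspa4l, Sdf2l1, Dnajb9, Ddit3, Cct8 (adjusted p = 0.174) or Hsbp1 (adjusted p = 0.224).

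Cells with Dntt UMIs differed little in heat shock gene levels. There were 986 kept cells with at least 1 Dntt UMI and 2484 without, at median depths of 8755 and 7602 UMIs, and 37.9% and 31.5% of them were high-cycle cells. Of the 7 genes tested, 2 were higher and 1 lower in Dntt cells, a share of the members to be read beside the 19.2% of 10268 genes that passed in either direction. The largest of these differences was 0.19 on the log2 scale, and the median of the 7 was 0.017, against 0.00084 over all genes tested.

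Hsp90ab1 had 2359, 2101, 2078 and 2136 CPM in the Dntt cells of Helios-deficient mice 1 and 2 and wild-type mice 1 and 2, against 2152, 1976, 1926 and 2061 CPM in their cells without Dntt. It was higher in 4 of 4 mice, by 0.13 on the log2 scale (SE 0.02, adjusted p = 1.11e-06). Hspa8 had 3197, 2598, 2493 and 2938 CPM in Dntt cells against 3029, 2535, 2358 and 2817 CPM in cells without, again higher in 4 of 4 mice (log2 0.10, SE 0.02, adjusted p = 1.6e-05). The unscaled log2 ratios of the mice were below these fitted values, at 0.052 to 0.13 for Hsp90ab1 and 0.036 to 0.080 for Hspa8. Hspa5 had 407, 293, 300 and 346 CPM against 451, 360, 368 and 394 CPM, lower in Dntt cells in 4 of 4 mice (log2 −0.19, SE 0.04, adjusted p = 1.47e-04). In all 3 genes the ranges of the Dntt cells and of the cells without Dntt overlapped between mice, and without the mouse as a block only Hsp90ab1 passed, where 12.3% of all genes were called. Outside the high-cycle class the 3 differences were 0.18, 0.14 and −0.15, each with an adjusted p under the threshold, as for 15.6% of all genes in that fit.

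The other 4 members did not pass: Hspe1 was at 0.07 (adjusted p = 0.141), Hspd1 at 0.017, Hsp90aa1 at 0.016 and Dnaja1 at 0.0054 on the log2 scale of the fit. For Hspd1, Hsp90aa1 and Dnaja1 the unscaled CPM averaged lower in Dntt cells, so no direction is given. Dntt cells held 307 to 487 CPM of B cell markers between mice, against 112 to 7989 CPM in cells without Dntt, and the part of this in the unscaled values was not tested. Of 22 endoplasmic reticulum genes, 6 fell in Dntt cells and none rose, beside 8.77% lower and 10.4% higher over all genes tested, among them Sdf2l1 (log2 −0.24, SE 0.05), Xbp1, a transcription factor of the unfolded protein response (−0.28, SE 0.07), Creld2 (−0.26, SE 0.08) and Calr (−0.13, SE 0.03). Of 21 cytosolic Hsp70 and Hsp40 genes, 4 fell: Hspa4l (−0.42), Dnajb4 (−0.39), Dnajb2 (−0.48) and Dnaja4 (−0.84). Of the Hsp90 partners only Fkbp5, a glucocorticoid-responsive immunophilin gene, passed (0.32, SE 0.10, adjusted p = 0.0188). None of the 7 TRiC genes or 12 mitochondrial genes passed, with 2 and 3 of them under an unadjusted 0.05, beside 2966 of all 10268 genes. Of the list genes named here for Dntt cells, DESeq2 called only Calr.

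Between genotypes no heat shock gene passed. In all kept cells 92 of 11592 genes were called (0.794%), and 0 of the 7 tested heat shock genes. An unadjusted 0.05 was met by 1 of the 7 and by 1202 of all 11592 genes. DESeq2 also called 0 of the 7. All 7 estimates were positive (median log2 0.10, against −0.00033 over all genes tested), and Helios-deficient mouse 1 had the highest value of all 4 mice for each of the 7.

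Hspe1 had 639 and 562 CPM in Helios-deficient mice 1 and 2, against 518 and 536 CPM in wild-type mice 1 and 2. The groups did not overlap, and the log2 difference was 0.19 (SE 0.06, adjusted p = 0.237). Hsp90aa1 had 1284 and 1084 CPM in the Helios-deficient mice, against 974 and 1069 CPM in the wild-type mice, again without overlap but with Helios-deficient mouse 2 close to wild-type mouse 2 (log2 0.21, SE 0.09, adjusted p = 0.481). The other 5 overlapped. Hspa8, for example, had 3085 and 2555 CPM in the Helios-deficient mice, against 2396 and 2856 CPM in the wild-type mice (log2 0.10, SE 0.18, adjusted p = 0.919), so that wild-type mouse 2 stood above Helios-deficient mouse 2. Hspd1 was at 0.17 (SE 0.09), Dnaja1 at 0.10 (SE 0.17), Hspa5 at 0.09 (SE 0.14) and Hsp90ab1 at 0.06 (SE 0.05). How many of all genes were without overlap was not counted, so the overlaps are no result about the members.

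**Figure D3:**
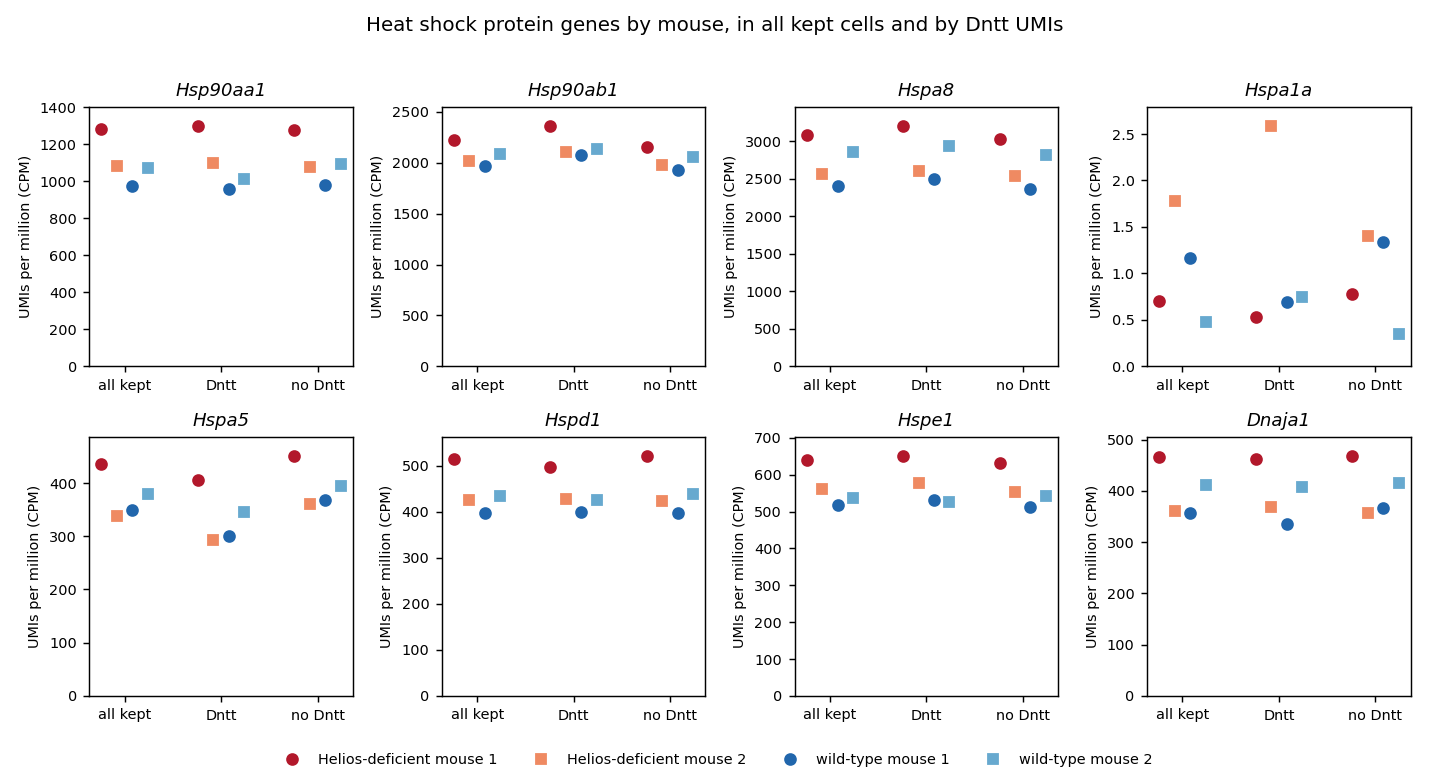
Level of each heat shock gene (CPM, y axis from 0) in each of the 4 mice, in all kept cells, in cells with Dntt UMIs and in cells without, with Helios-deficient mice left of wild-type mice. Helios-deficient mouse 1 is the highest in all panels but that of Hspa1a, which rests on 35 UMIs.

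These values depended on which mice were included. Without Helios-deficient mouse 2, 5 heat shock genes passed, where 4.75% of all genes were called against 0.794% with all 4 mice, and with only Helios-deficient mouse 1 left in its group and assumed to vary like the wild-type pair: Hsp90aa1 (log2 0.33, adjusted p = 2.88e-06), Hspd1 (0.31), Hspe1 (0.28), Dnaja1 (0.28) and Hspa5 (0.26). Without Helios-deficient mouse 1, none passed, and Hsp90ab1, Hspa8, Hspa5 and Dnaja1 had negative estimates. Without wild-type mouse 2, where 1.16% of genes were called, Hsp90aa1 passed (log2 0.29, adjusted p = 0.00866). Without a filter on low counts (1.79% called) Hsp90aa1 passed as well (adjusted p = 0.00264).

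The share of high-cycle cells and the depth per cell were both higher in the Helios-deficient mice. High-cycle cells made up 35.5% and 37.3% of the kept cells of the Helios-deficient mice, against 31.6% and 30.7% in the wild-type mice. The median kept cell held 8670 and 8461 UMIs in the Helios-deficient mice, against 7599 and 7627 UMIs in the wild-type mice. Neither difference was tested, nor was the part of depth in the genotype values. Of 52 G2 and M phase genes 51 had positive genotype estimates (median log2 0.22) although none passed. Of these 52 genes 26 lay under an unadjusted 0.05, beside 1202 of all 11592 genes tested. Among high-cycle cells alone the 7 heat shock genes lay between 0.07 and 0.17, and among low-cycle cells alone 5 lay between 0.01 and 0.09, Hspe1 at −0.0031 and Hspa5 at −0.28 (adjusted p = 0.24). None passed in either class. Markers of myeloid priming summed to 1762 and 1714 CPM in the Helios-deficient mice, against 1216 and 989 CPM in the wild-type mice, and blood stem cell markers to 1938 and 2002 against 1721 and 1567 CPM. Markers of lymphoid priming summed to 745 and 906 CPM in the Helios-deficient mice, against 1081 and 1080 CPM in the wild-type mice. In all, 5 of 10 marker lists did not overlap between genotypes (also those of erythrocytes and of T or NK cells, both lower in the Helios-deficient mice), and their part in the result was not tested. The sums themselves were not tested between genotypes. Of the chaperone lists, none had a gene called between genotypes: 0 of 21 cytosolic Hsp70 and Hsp40, 22 endoplasmic reticulum, 12 Hsp90 partner, 12 mitochondrial, 7 TRiC, 3 small heat shock protein and 3 heat shock factor genes passed, with 1, 1, 2, 1, 2, 0 and 0 under an unadjusted 0.05. The immediate early genes Btg2 (17.5 ± 1.37 against 29.4 ± 4.73 CPM) and Zfp36 (10.8 ± 2.01 against 18.1 ± 2.67 CPM) fell in Helios-deficient mice (edgeR adjusted p = 0.0112 and 0.0369; SD, n = 2), neither called by DESeq2 (adjusted p = 0.173 and 0.612), and the other 14 tested did not pass.

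**Figure D4:**
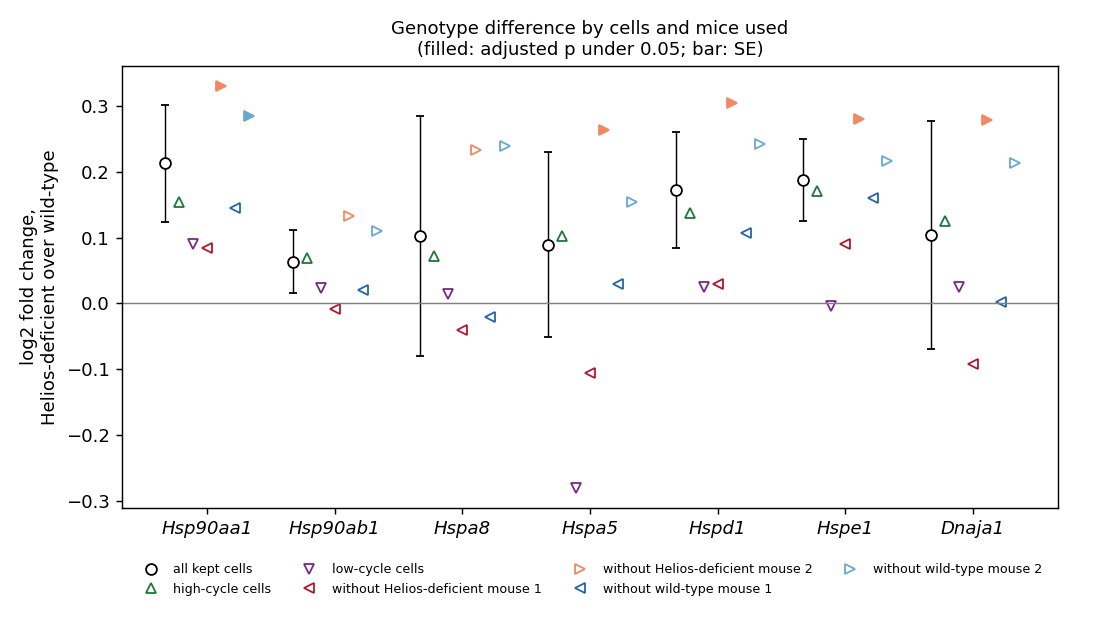
Genotype difference (log2, Helios-deficient over wild-type, y axis) of the 7 tested heat shock genes in all kept cells (black circle with SE), in high-cycle and in low-cycle cells, and without each mouse in turn. Filled symbols have an adjusted p under the threshold; 5 are filled where Helios-deficient mouse 2 was left out, and 1 where wild-type mouse 2 was.

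In cells with Dntt UMIs, 25 of 9933 genes were called between genotypes (0.252%), again with 0 of the 7 heat shock genes. None of the 7 was called by DESeq2, and 2 lay under an unadjusted 0.05, beside 778 of all 9933 genes. Hsp90aa1 came closest, with 1297 and 1100 CPM in Helios-deficient mice 1 and 2, against 956 and 1014 CPM in wild-type mice 1 and 2. The groups did not overlap, at a log2 difference of 0.28 (SE 0.07, adjusted p = 0.0945). It passed in cells with at least 2 Dntt UMIs (log2 0.40, adjusted p = 2.14e-04; 0.611% of all genes called), without a filter on low counts (adjusted p = 0.00139; 0.721% called) and without Helios-deficient mouse 2 (0.39, adjusted p = 0.00434; 0.556% called), but not with any of the other 3 mice left out. Hspe1 (651 and 578 CPM, against 531 and 525 CPM in wild-type mice) and Hspd1 (497 and 427 CPM, against 399 and 425 CPM) were also without overlap, at 0.22 (adjusted p = 0.365) and 0.16 (adjusted p = 0.642). The number of all genes without overlap was not counted here either, so this is no result about the members.

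In cells without Dntt UMIs, 82 of 11121 genes were called (0.737%) and 0 of the 7 heat shock genes. None of the 7 was called by DESeq2, and 1 lay under an unadjusted 0.05, beside 1064 of all 11121 genes. Hsp90aa1 had 1277 and 1076 CPM in the Helios-deficient mice, against 980 and 1095 CPM in the wild-type mice, and the groups overlapped (log2 0.18, SE 0.09, adjusted p = 0.629). As in all cells, 5 of the 7 passed without Helios-deficient mouse 2, where 2.88% of all genes were called. The difference between the Dntt classes in the genotype effect was tested as an interaction, for which 3 of 10675 genes were called (0.0281%). The estimate for Hsp90aa1 was 0.11 (SE 0.05, adjusted p = 0.991), and those of the other 6 lay between −0.01 and 0.10, none of them called, also not by DESeq2.

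Gene expression without the chaperone and cell cycle genes divided the kept cells into 10 clusters, which are given by number and leading genes and carry no cell type name. The clusters at the top for most heat shock genes were cluster 6 (Car1, Pf4), cluster 2 (the replication genes Ung and Chek1), cluster 4 (the spindle gene Nusap1 and the histone gene Hist1h2ap) and cluster 7 (Elane, F13a1). Cluster 3 (Igkc, Ighm, and the imprinted Meg3), of which 39.1% of cells lay in the stem gate, was the lowest for Hsp90aa1, Hsp90ab1, Hspa8, Hspd1 and Hspe1. These levels are a description with no test.

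Hsp90aa1 had 1529, 1482, 1424 and 1424 CPM in cluster 6 cells of Helios-deficient mice 1 and 2 and wild-type mice 1 and 2, and 715, 693, 653 and 638 CPM in cluster 3 cells, a ratio of means of 2.17. Its values did not overlap between clusters 7 and 5, which were neighbours in its order (1237 ± 149 CPM in cluster 7 and 890 ± 45.3 CPM in cluster 5, led by Notch2; SD, n = 4 mice), and all 8 other neighbouring pairs in its order overlapped. Hspd1 showed the same gap, with 458 to 567 CPM in cluster 4 and 329 to 451 CPM in cluster 5, and a ratio of 2.11 from the highest cluster (582 ± 27.0 CPM in cluster 6) to the lowest (276 ± 37.4 CPM in cluster 3). For Hsp90ab1, Hspa8, Hspa5, Hspe1 and Dnaja1 all 9 neighbouring pairs overlapped. Their highest clusters averaged 2256 ± 142 CPM (cluster 2) for Hsp90ab1, 3261 ± 438 CPM (cluster 7) for Hspa8, 495 ± 35.4 CPM (cluster 6) for Hspa5, 692 ± 66.4 CPM (cluster 6) for Hspe1 and 455 ± 69.4 CPM (cluster 2) for Dnaja1.

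The ratio of the highest to the lowest cluster was 2.21 for Hspa5, whose lowest cluster was number 9 (Hbb-bt, Chil5; 224 ± 126 CPM over only 47 cells), 1.73 for Hspe1, 1.66 for Hspa8, 1.51 for Dnaja1 and 1.35 for Hsp90ab1. Dnaja1 was lowest in cluster 1 (Gm32554, Wfdc18), at 266 to 367 CPM, a cluster in which 67.8% of cells had Dntt UMIs. Cluster 7, in which 82.9% had Dntt UMIs, had a median of 12224 UMIs and 0.769% of UMIs in cycle genes, against 6683 UMIs and 0.268% in cluster 1. Dntt cells were therefore found both among clusters with high and with low heat shock gene levels: Hspa8 was at 3261 ± 438 CPM in cluster 7 and 2331 ± 144 CPM in cluster 1.

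**Figure D5:**
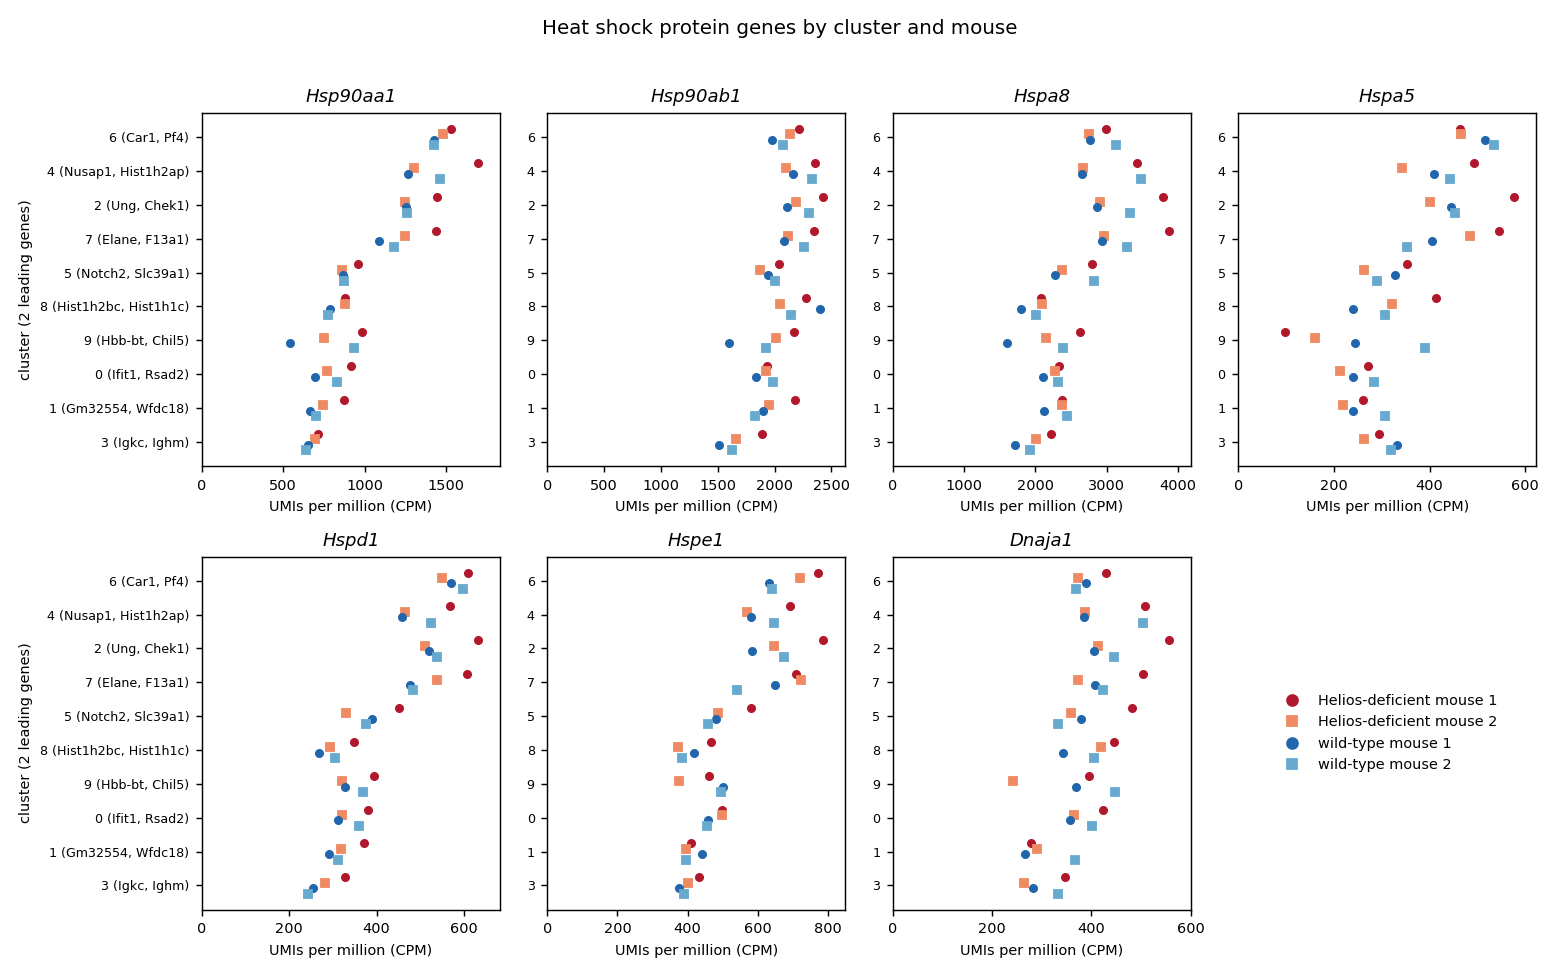
Level of 7 heat shock genes (CPM, x axis from 0) in 10 clusters (rows, in the order of Hsp90aa1, named by number and 2 leading genes), 1 symbol per mouse. The clusters 6, 4, 2 and 7 lie to the right for most genes, and cluster 3 averages 675 CPM for Hsp90aa1.

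Within the 4 clusters that held at least 50 cells of every mouse, no heat shock gene was called between genotypes. The shares of genes called were 0.245% in cluster 0 (Ifit1, Rsad2), 0.166% in cluster 2, 0.162% in cluster 3 and 0.289% in cluster 4, and DESeq2 called no member. In these clusters 0, 1, 3 and 0 of the 7 members lay under an unadjusted 0.05. Over all genes it was 488 of 8584, 435 of 8422, 433 of 7418 and 454 of 9000. In cluster 3, Hspa5 was at 295 and 263 CPM in Helios-deficient mice 1 and 2, against 331 and 320 CPM in wild-type mice 1 and 2 (log2 −0.29, SE 0.11, adjusted p = 0.719), while Hspa8 was at 2213 and 2001 against 1710 and 1921 CPM (0.17, SE 0.07, adjusted p = 0.782). Hspd1, the other member under an unadjusted 0.05, was at 0.23 (SE 0.11, adjusted p = 0.824). Of the 7 members 6 did not overlap between genotypes in cluster 3, all but Dnaja1. Of these 6 only Hspa5 had a negative estimate. How many of all genes did not overlap there was not counted, so this count is no result about the members. These CPM are unscaled, and the part of B cell markers in them was not tested. Hsp90aa1 was at 0.14, 0.09, 0.07 and 0.13 in clusters 0, 2, 3 and 4, and in cluster 4 it passed without Helios-deficient mouse 2 (0.32, adjusted p = 6.46e-05; 0.345% of all genes called). A test of whether the genotype effect differed between the 4 clusters called 4 of 9606 genes (0.0416%) and no heat shock gene. Under an unadjusted 0.05 lay 1 of the 7, beside 385 of the 9606 genes.

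Cell by cell, the 7 abundant genes varied together. Over the 3470 kept cells, with depth-scaled residuals centred within each mouse, all 21 pairs had positive Pearson correlations, between 0.143 (Hsp90ab1 with Hspa5) and 0.516 (Hsp90aa1 with Hspa8), with a median of 0.293. Centred within mouse and cluster, all 21 remained positive, between 0.095 and 0.415, with a median of 0.227. The mitochondrial pair Hspd1 and Hspe1, whose genes lie head to head, stood at 0.408, below Hspd1 with Hsp90aa1 at 0.467. Pairs with Hspa1a lay between −0.012 and 0.029. The cells of a mouse share a library and differ in depth, so these values describe the cells and carry no test.

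The genes most like each member were found over 37 profiles of a cluster in a mouse, among 5612 genes. Stip1, the Hsp70 to Hsp90 adaptor, was the most like Hspa8 (Pearson r = 0.94), and Hspd1 the most like Hspe1 (0.95). Hspd1 was most like Nme1 (0.97), Slc25a5 (0.96) and Hnrnpf (0.95), and Hsp90aa1 most like Ybx1 (0.96), Ran (0.96) and Lyar (0.95). The closest genes were Psma2 (0.88) for Hsp90ab1, U2af1 (0.88) for Hspa5 and Gapdh (0.80) for Dnaja1, the least matched member. Over the 32 profiles without clusters 3 and 9, which mature-cell genes lead, Nme1 (0.97) was still first for Hspd1, but Fen1 (0.95) came first for Hspa8, Srsf3 (0.97) for Hsp90aa1 and Nme1 (0.95) for Hspe1, just ahead of Hspd1. Profiles of 1 mouse share a library, and clusters share cell cycle state, so these values are descriptions.

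The 372 barcodes that carried 1 hashtag but were not on the authors' list of kept cells were compared with the kept cells last. Of 10218 genes, 16.6% were called, and 5 of the 7 heat shock genes were higher in the left-out barcodes: Hspd1 (log2 0.61, SE 0.09), Hsp90aa1 (0.54, SE 0.08), Hspe1 (0.54, SE 0.08), Hspa5 (0.54, SE 0.09) and Hspa8 (0.20, SE 0.07). The call of Hspa8 was lost with DESeq2 (adjusted p = 0.109), without a count filter (0.116), and when Helios-deficient mouse 2 (0.301) or wild-type mouse 1 (0.244) was left out. The left-out barcodes were of 2 kinds, for which 18% and 18.4% of all genes were called against the kept cells. Those with at least 5% mitochondrial UMIs (81.7%) had a median of 1547 UMIs, and in them Hspa5 was higher than in kept cells (log2 0.75, adjusted p = 2.18e-10), but Hspe1 (−0.70, adjusted p = 1.79e-07), Hsp90ab1 (−0.40, adjusted p = 4.99e-04) and Hsp90aa1 (−0.31, adjusted p = 0.0212) were lower. The other 68 had a median of 31209 UMIs, of which 1.06% at the median cell were in cycle genes, and 6 of the 7 heat shock genes were higher in them, by 0.30 to 0.87 on the log2 scale, with Dnaja1 at 0.07 (adjusted p = 0.669). Of the members named for the first kind, Hspa5 was the only one higher in both. The estimate of Hspd1 did not change sign in either kind, whereas that of Hspa8 was negative in the first kind.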

How the data were processed

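The series holds 3 libraries (messenger RNA, antibody tags and hashtags) of 1 pooled droplet run of mouse LSK cells, prepared with a Single Cell 3′ v2 chemistry per the labels' protocols. The values used were raw UMI counts per gene and barcode, deposited by the authors as a matrix without scaling; its header gives software version 3.0.2. The submitters' processing notes name Cell Ranger, Seurat 3.0.0 and build mm10. The authors' deposited hashtag calls (3842 barcodes of 1 mouse, 231 doublets, 35 without hashtag) and list of 3470 kept barcodes were used as given; the filter behind the list is not given in the sources used here. No doublet caller was run on the kept cells, from which hashtag doublets were absent.

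UMIs were summed per mouse and cell class. Hashtags 1 and 2 marked the Helios-deficient and 3 and 4 the wild-type mice. Sums were tested with edgeR 4.0.16 (filterByExpr, TMM scaling, robust quasi-likelihood F-test) in R 4.3.3, with the mouse as a block where classes of the same animals were compared. CPM values are unscaled sums scaled to 1000000 UMIs. SE is the log2 fold change divided by the square root of F. Nothing beyond the labels says how far the mice were independent (litter, cage). With 2 mice per genotype, p-values rest on the variation among these 4 mice, with variances moderated over all genes tested. Where the mouse was a block, that is the variation of the differences within mice. Intervals on counts cover counting error only. Clusters came from Pearson residuals of 1500 variable genes, 30 components and Leiden clustering at resolution 0.5 (scanpy 1.11.5), without the members, other chaperone genes, cell cycle genes, sex-linked genes or genes that the genotype test called. They were given no cell type names.

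The fit was tested on simulated data with 200 changed genes for 3 of the comparisons. Between genotypes, 57 of 98 tested genes changed 1.5-fold and 84 of 100 changed 2-fold were called, beside 20 false calls among 161. For Dntt cells it was 71 of 100 and 93 of 98 (7 false of 171), and for the gates 50 of 97 and 78 of 92 (9 false of 137). The share of false calls thus lay above the threshold between genotypes and between the gates, and below it for Dntt cells. No change smaller than 1.5-fold was simulated. The members' estimates in these 3 comparisons were all smaller (log2 0.06 to 0.21 between genotypes), so the power to call differences of their size was not tested. Alternatives were DESeq2 1.42.0, its size factors, no count filter, no robust option, no block, other cells and leaving out each mouse. The members, lists and tests were chosen with earlier results of these data known. Genes named were chiefly the 8 members, Ikzf2, Dntt and the 3 genes most alike to each member. Of each list and comparison, up to 4 genes with the smallest p among those called were named. Clusters 3 and 9 were left out of the second likeness because Igkc and Hbb-bt lead them. Hspa1a failed the count filter in every test. Cycle classes are ranges of a score: 227 cells lay within 10% of the upper and 451 within 10% of the lower limit.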

Additional observations from a re-analysis of the deposited data

Results flagged for a closer look

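There were 3 values flagged because 1 of 4 mice lay far from the rest, by the gap to its nearest neighbour over the whole range, among 84 sets of 4 values examined; chance flags about 1 set in 20. Hsp90aa1 in the stem gate was at 1192 CPM in Helios-deficient mouse 1, against 947 to 958 CPM in the other 3 mice. Hspa5 in the progenitor gate was at 540 CPM in the same mouse, against 342 to 365 CPM in the other 3. The unscaled log2 ratio of Hspe1 between the stem and the progenitor gate was 0.011 in wild-type mouse 1, whereas the other 3 mice lay between −0.21 and −0.23.

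Hspa5 was flagged because its ratio between the stem and the progenitor gate was lower in both Helios-deficient mice (log2 −0.47 and −0.017) and higher in both wild-type mice (0.35 and 0.16). The mean of Helios-deficient minus wild-type mice was −0.50, and the difference was not tested. It includes the progenitor gate value of Helios-deficient mouse 1 that is flagged above.

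The other flags were 5 members that had a signal in the 372 left-out barcodes, which enter no comparison of genotypes, above their level in the kept cells: Hspd1 (log2 0.61), Hsp90aa1 (0.54), Hspe1 (0.54), Hspa5 (0.54) and Hspa8 (0.20). Hsp90aa1 was at 1789, 1930, 1487 and 1265 CPM in the left-out barcodes of Helios-deficient mice 1 and 2 and wild-type mice 1 and 2, against 1284, 1084, 974 and 1069 CPM in the kept cells.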

How the results depend on the processing

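The 7 rises with cell cycle share, the 3 Dntt calls under every setting with the mouse block, and the 4 calls of Hsp90aa1, Hsp90ab1, Hspa8 and Hspd1 between the gates under DESeq2, its size factors, no filter, no robust option and each mouse left out kept direction and call. Of 216 values of single members with a mouse left out, 23 changed sign, 13 passed anew and 7 no longer passed; of 336 under other settings, 15, 4 and 14. The cause was not tested. Alternatives for clusters and left-out barcodes were chosen after seeing the data. At this depth Hspa1a, with 35 UMIs, could not be compared, and 2 mice per genotype limit all genotype values.

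Counts of heat shock genes called moved as follows. Between genotypes in all cells it was 1 without a count filter (main 0) and 0 to 5 leaving out a mouse; in Dntt cells 1 without a filter, 1 with at least 2 Dntt UMIs and 0 to 1 leaving out a mouse; in cells without Dntt 0 to 5; in cluster 4 0 to 1. No replicate block left 1 of 3 calls for Dntt cells (Hspa8 at an adjusted p of 0.683 and Hspa5 at 0.377) and 3 of 6 between the gates (Hspa8 at 0.0688), and 3 of 6 passed without high-cycle cells. The pairing is that of the same animal, and the cell cycle calls all held without the block.

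Counts over all genes moved more. DESeq2 called 34 genes between genotypes (main 92), 11 in Dntt cells (25), 26 in cells without (82), 0 for the interaction (3), 834 for Dntt cells (1970), 668 between the gates (1735), 3170 for the cell cycle (5305), 852 for left-out barcodes (1700), and 6, 4, 4 and 5 in clusters 0, 2, 3 and 4 (21, 14, 12 and 26). Without a filter it was 296 in all cells, 107 in Dntt cells, 228 without Dntt, 13 for the Dntt interaction, 33 in cluster 3 and 12 for the cluster interaction (4). Without the robust option it was 57 in all cells, 7 and 12 for the interactions. Other cells gave 36 (equal cells of each cluster), 52 (without the 64.7% of cells holding at least 3 mature-marker UMIs), 144 (all single-mouse barcodes) and 51 (high-cycle cells only, chosen after seeing the data). At least 2 Dntt UMIs gave 56 and, for the interaction, 12; no replicate block gave 1260 for Dntt cells; no high-cycle cells gave 735 and centred log-ratios of the tags 2972 between the gates. Leaving out a mouse gave 126 to 563 (without Helios-deficient mouse 2) in all cells, 35 to 57 in Dntt cells, 56 to 329 in cells without, 7 to 31 and 5 to 12 for the interactions, 754 (without Helios-deficient mouse 2) to 1619 for left-out barcodes, and 8 to 36, 0 to 37 and 12 to 32 in clusters 0, 3 and 4.

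Signs turned in values that had not passed and, in the left-out barcodes, in 3 that had. Between genotypes Hspa5 was −0.0062 with equal cells of each cluster, −0.055 without mature-marker cells and −0.28 in low-cycle cells, where Hspe1 was −0.0031; Dnaja1 was −0.028 without mature-marker cells. Leaving out a mouse, all cells gave −0.11 to 0.26 for Hspa5, −0.092 to 0.28 for Dnaja1, −0.0085 to 0.13 for Hsp90ab1 and −0.040 to 0.24 for Hspa8; Dntt cells gave −0.055 to 0.23 for Hspa8 and −0.13 to 0.33 for Hspa5; cells without gave −0.019 to 0.11 for Hsp90ab1, −0.036 to 0.24 for Hspa8, −0.088 to 0.24 for Hspa5 and −0.13 to 0.26 for Dnaja1; Hsp90aa1 was −0.021 to 0.20 in cluster 2 and −0.068 to 0.32 in cluster 4. In these ranges the lowest values came without Helios-deficient mouse 1. For Dntt cells Dnaja1 was −0.070 outside the high-cycle class and −0.027 to 0.037 leaving out a mouse, Hsp90aa1 −0.0084 to 0.045 and Hspd1 −0.0012 to 0.036. Between the gates Hspa5 was −0.015 with DESeq2, −0.029 without a filter, −0.013 with no replicate block, −0.11 with centred log-ratios and −0.12 to 0.16 leaving out a mouse. In left-out barcodes with at least 5% mitochondrial UMIs, a split chosen after seeing the data, called values reversed for Hsp90aa1 (−0.31), Hspe1 (−0.70) and Hspa8 (−0.25), and Hsp90ab1 was −0.40; Dnaja1 was 0.070 in the other left-out barcodes and −0.068 to 0.063 leaving out a mouse.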
